A study of Mus musculus with 8 samples.

Results

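The nuclear factor I family consists of the 4 transcription factor genes Nfia, Nfib, Nfic and Nfix, taken here as 4 of 21883 protein-coding genes. Each locus was the RefSeq gene body on GRCm38 with 500 kb added on either side, so that distal enhancers were included, and every deposited peak in it was used, whatever its score. The family was picked with an H3K27ac difference between Fast and Fed near Nfia already known, so the H3K27ac values by feeding are given as a description, without a test. The study profiled acetylation of histone H3 at lysine 27 (H3K27ac) and lysine 9 (H3K9ac) by CUT&Tag, in which an antibody tethers a transposase to the mark and the cut fragments are sequenced. The material was small intestinal crypt cells from male C57BL/6J mice aged 9 weeks, released with EDTA and shaking and then dissociated with trypsin. The mice were unmodified and had been either fed (Fed) or fasted for 24 h (Fast), and either received tetracycline for 21 days or did not, which gave 4 groups for each mark. Each group was 1 sample with 2 peak lists, numbered 1 and 2 only in their deposited names, so there were 8 lists for each mark and 16 in all. The labels do not say whether lists 1 and 2 are different mice, and spread and p-values are taken over lists as if they were separate.

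Nuclear factor I proteins bind DNA as dimers, through a palindrome made of the arms TTGGC and GCCAA with a short spacer between them, and a single arm can be bound more weakly. They act in the development of brain glia, lung, muscle and stem cell compartments, and in several tissues they occupy enhancers together with lineage-determining factors such as FOXA and SOX proteins. NFIA and NFIB are best known from gliogenesis and lung maturation, NFIC from tooth root formation, and NFIX from muscle and neural progenitors. H3K27ac is found at active enhancers and promoters, and H3K9ac mainly at active promoters.

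The promoter windows below run from 250 bases before to 50 bases after an annotated start site, are from RefSeq on GRCm38.p6, and are written 5′ to 3′ on the strand of the gene. They are shown because the acetylated regions described afterwards lie elsewhere in the same genes or in their flanks. Of the 4 members 3 matched this table, with 6 windows. The windows of Nfia (chr4:97581693-97581992, + strand), Nfic (chr10:81427124-81427423, - strand) and of a pair of the 4 Nfix start sites (chr8:84775779-84776078 and chr8:84772826-84773125, - strand) are given. Capitals mark the arms TTGGC and GCCAA.

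Nfia: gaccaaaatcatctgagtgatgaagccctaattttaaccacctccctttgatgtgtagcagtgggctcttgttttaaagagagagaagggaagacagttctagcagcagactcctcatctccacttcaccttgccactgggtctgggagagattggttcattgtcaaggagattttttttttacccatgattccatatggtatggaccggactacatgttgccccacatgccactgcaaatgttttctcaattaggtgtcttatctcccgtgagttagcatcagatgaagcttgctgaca

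Nfic: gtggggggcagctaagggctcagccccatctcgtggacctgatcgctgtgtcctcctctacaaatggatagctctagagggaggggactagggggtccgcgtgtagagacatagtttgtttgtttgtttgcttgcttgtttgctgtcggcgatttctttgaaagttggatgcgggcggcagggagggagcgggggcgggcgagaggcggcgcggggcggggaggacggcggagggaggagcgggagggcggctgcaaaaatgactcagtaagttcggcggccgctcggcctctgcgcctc

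Nfix start site 84775828: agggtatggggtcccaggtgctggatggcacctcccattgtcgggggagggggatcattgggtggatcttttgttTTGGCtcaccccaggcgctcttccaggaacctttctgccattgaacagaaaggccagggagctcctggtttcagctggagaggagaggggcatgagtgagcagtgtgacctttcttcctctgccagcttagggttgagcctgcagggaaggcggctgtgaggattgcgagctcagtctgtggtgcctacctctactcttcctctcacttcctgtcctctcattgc

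Nfix start site 84772875: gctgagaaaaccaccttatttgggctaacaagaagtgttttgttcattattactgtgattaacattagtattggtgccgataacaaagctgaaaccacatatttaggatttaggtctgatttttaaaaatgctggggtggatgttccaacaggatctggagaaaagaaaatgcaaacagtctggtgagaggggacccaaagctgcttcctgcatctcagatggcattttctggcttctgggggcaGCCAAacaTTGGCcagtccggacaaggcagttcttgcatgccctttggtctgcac

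Neither the Nfia nor the Nfic window held an arm, the window at Nfix start site 84775828 held 1 and that at 84772875 held 2. Of the Nfix windows not printed, that at start site 84773410 held 1 arm and that at 84780082 held none. The full palindrome, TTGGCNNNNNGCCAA (it reads the same on both strands), was in none of the 6 member windows and in 0.0365% of 32851 promoter windows. A single arm, searched as TTGGC on both strands and including the arms of any palindrome, was in 46.7% of them. The Nfia window met no peak in any list of either mark. The Nfic window met an H3K9ac peak in 1 list (Fast 2 with tetracycline) and no H3K27ac peak. The Nfix window at 84775828 met an H3K27ac peak in 1 list (Fast 2 without tetracycline). The other 3 Nfix windows met no peak. Over all promoter windows, a single list met 31.4% to 37.5% of them with H3K27ac and 28.0% to 35.4% with H3K9ac. None of the printed start sites was at the outer end of its gene: that of Nfia lay 3.88 kb inside the gene and that of Nfic 4.75 kb inside.

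The lists differed in size, from 32392 to 68545 H3K27ac peaks and from 17249 to 99050 H3K9ac peaks on the numbered chromosomes, X and Y. No read totals come with the lists, so the depth behind them is unknown. The Fast 1 lists differed in their share of peaks with the smallest width of 200 bp. Among H3K27ac peaks it was 11.8% without tetracycline but only 0.862% with it, and among H3K9ac peaks 17.2% and 20.3%. For H3K9ac, Fast 2 with tetracycline had 31.2% of its peaks at that width. The labelled cell type was checked at gene ends, a gene being called marked where either of its ends had a peak no more than 1 kb away. All 8 epithelial markers (among them Epcam, Cdh1 and Vil1) and all 7 intestinal transcription factors (Cdx2, Hnf4a, Hnf4g, Klf5, Elf3, Gata4, Gata6) were marked by H3K27ac in every list. None of 7 fibroblast and none of 4 endothelial markers was marked by H3K27ac in any list, while H3K9ac was at 0 to 3 and 0 to 1 of them. Of 4 smooth muscle markers 0 to 2, and of 6 markers of glia and neurons 0 to 2, were marked by H3K27ac. Crypt markers were marked by H3K27ac in 1 to 3 of 5 genes in Fed lists and 2 to 5 in Fast lists. Of the stem cell genes, Olfm4 was marked in 4 Fast lists and 1 Fed list, Ascl2 in 3 and 0, and Lgr5 in 1 and 0. Lyz1 was marked in 2 Fast and 2 Fed lists, and Mki67 in 4 and 4.

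The members lie in very different surroundings. Nfia (gene 18027, chr4:97578066-98118876) is 541 kb long and shares its window with 2 other protein-coding genes, Tm2d1 and Patj. Nfib (gene 18028, chr4:82290173-82506751) is 217 kb long and shares its window with Zdhhc21, Cer1 and Frem1. Nfic (gene 18029, chr10:81396191-81431919) is 35.7 kb long among 52 other genes, and Nfix (gene 18032, chr8:84704712-84801238) is 96.5 kb long among 39. Peaks covered a median over the 8 lists of 12.5 kb of H3K27ac per Mb at Nfia and 16.02 kb per Mb at Nfib, against 129 kb per Mb at Nfic and 63.5 kb per Mb at Nfix. Inside the gene bodies the median H3K27ac covered length was 10.3 kb in Nfia, 9.50 kb in Nfib, 3.05 kb in Nfic and 3.48 kb in Nfix. Per Mb of gene body that was 19.1 kb in Nfia (10.4 to 25.1 over lists), 43.9 kb in Nfib (18.5 to 71.4), 85.4 kb in Nfic (26.8 to 172) and 36.1 kb in Nfix (0 to 97.7). Nfic was thus highest and Nfia lowest by either window or gene body, and the ranges over lists of Nfib, Nfic and Nfix overlapped in the gene body, while that of Nfia overlapped those of Nfib and Nfix and ended below that of Nfic. Peaks merged over the 8 lists of a mark gave 79 H3K27ac regions at Nfia, 42 at Nfib, 130 at Nfic and 114 at Nfix. Of these, 2.53% at Nfia and 7.14% at Nfib lay within 1 kb of a gene end, against 48.5% at Nfic, 35.1% at Nfix and 13.6% of all 112301 regions.

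The Nfia locus held the region that drew attention to the family. In the lists without tetracycline, Fed 1 and Fed 2 had no H3K27ac peak at chr4:97465274-97466659, while Fast 1 had a peak of 1376 bp with a score of 1954 and Fast 2 a peak of 1018 bp with a score of 1466. In those with tetracycline, Fed 1 and Fed 2 again had none, Fast 1 had a peak of 1124 bp with a score of 1185 and Fast 2 a peak of 1046 bp with a score of 476. The region, 1386 bp across, was thus in all 4 Fast and no Fed lists. The score was given to each peak by the authors, has no stated unit and ranks peaks only within its list: 1.797%, 10.1%, 6.76% and 22.5% of the peaks in these Fast lists, in the same order, scored higher. It lies in intergenic sequence 111 kb outside the lower end of Nfia, the end nearest to its start, and is the only such region among the 365 H3K27ac regions of the 4 loci. That pattern was seen in 0.4% of regions over the genome. The nearest H3K27ac peak in the Fed lists was 284 kb away in Fed 1 and 257 kb away in Fed 2 without tetracycline, and 284 kb and 163 kb away with it. All of these values come from the contrast that led to the choice of the family.

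H3K9ac, measured in other libraries, gave 1 peak at this place. Fast 2 without tetracycline had a peak of 605 bp with a score of 118, and the other 7 lists had none. The nearest H3K9ac peak lay 6.52 kb away in Fast 1 without tetracycline, and 2.77 kb and 0.246 kb away in Fast 1 and Fast 2 with tetracycline. In the 4 Fed lists it lay 68.6 kb away or more. Both H3K9ac Fast 1 lists and Fast 2 with tetracycline held many peaks of the smallest width, and the part of these in the shorter distances was not tested. Beside the region, Ptprc, which encodes the leukocyte antigen CD45, was also marked by H3K27ac at a gene end in all 4 Fast and no Fed lists, as were 0.096% of all genes. Of the 6 immune markers 2 to 3 were marked by H3K27ac in each Fed list and 2 to 4 in each Fast list, with Adgre1, a macrophage marker gene, in none. The T cell receptor complex genes Cd3e and Cd3d were marked in 4 Fed and 2 Fast lists and in 3 and 3, and the B cell receptor gene Cd79a in all 8. By H3K9ac, Ptprc was marked in no list. The part of other cells in the Nfia region was not tested. More cells carrying a mark and more mark in each cell cannot be told apart in these samples.

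**Figure D1:**
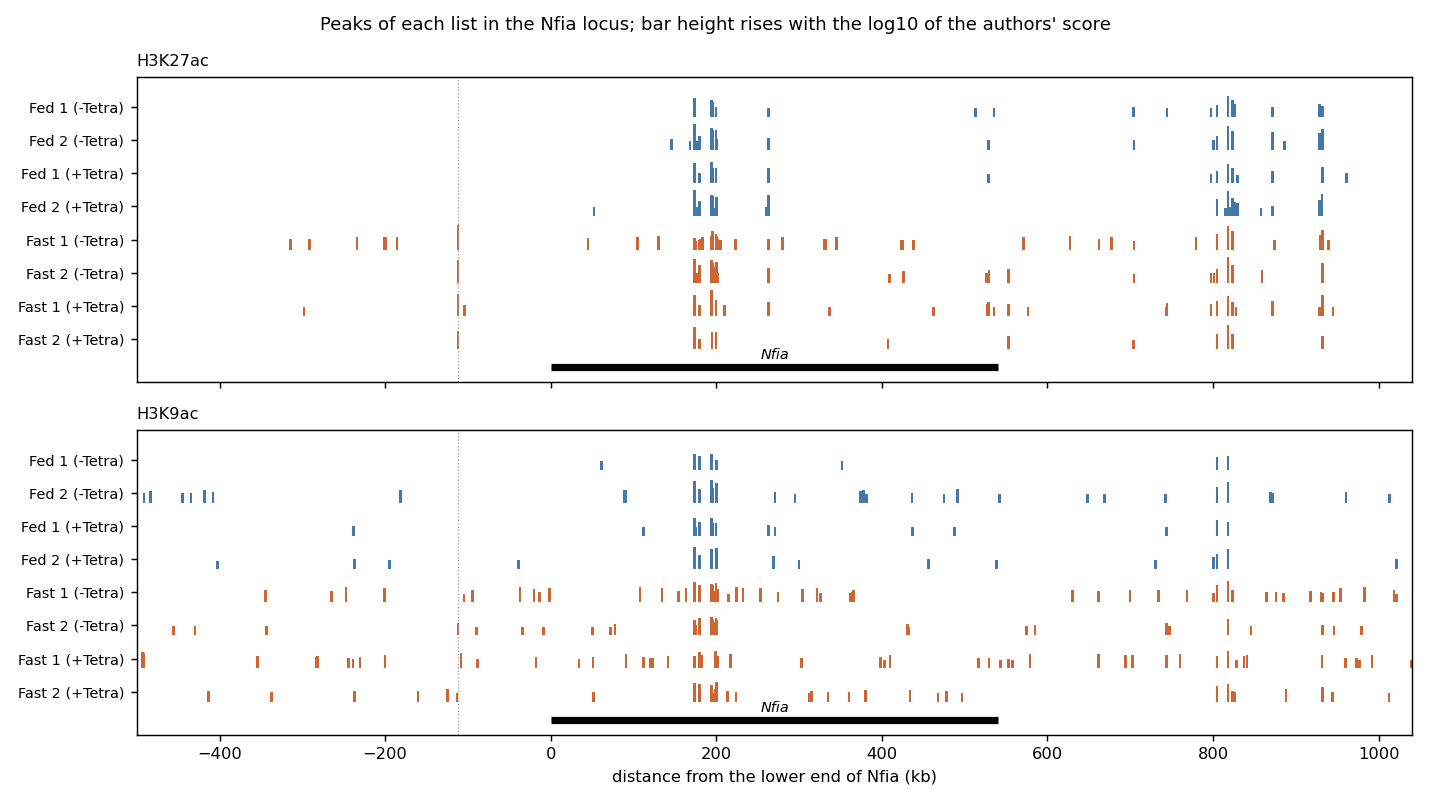
H3K27ac (upper panel) and H3K9ac (lower panel) peaks of each list along the Nfia locus, in kb from the lower end of the gene, with Fed lists in blue and Fast lists in orange; bar height rises with the log10 of the score and very narrow peaks are widened to be visible. The dotted line marks the region 111 kb outside the gene, where all 4 Fast H3K27ac lists have a tall bar and no Fed list has one; the gene itself is the black bar.

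Within Nfia the same acetylated cluster was present in fed and fasted crypts. It lies about 174 to 200.5 kb inside the gene from its lower end, far from the printed promoter window. Its H3K27ac regions chr4:97750757-97753003, chr4:97771547-97774031 and chr4:97776460-97779252 were in all 8 lists, as were the H3K9ac regions chr4:97750825-97753118, chr4:97757032-97758582 and chr4:97776576-97780539. These were the only regions of the gene body in all 8 lists of a mark, out of 37 H3K27ac and 73 H3K9ac regions. H3K27ac covered 1395 and 1623 bp of the first region in Fed 1 and Fed 2 without tetracycline and 2068 and 1684 bp in Fast 1 and Fast 2. With tetracycline it covered 1607 and 1676 bp in the Fed lists and 1913 and 1829 bp in the Fast lists. The mean log2 ratio of Fast over Fed was 0.25, and 28.6% of the H3K27ac regions in all 8 lists had a larger one. Every Fast value was above every Fed value, the nearest being 1684 and 1676 bp. The H3K9ac region at chr4:97776576-97780539 had the same order in the H3K9ac lists: 1415 and 1997 bp (Fed) and 2617 and 2110 bp (Fast) without tetracycline, then 1350 and 1590 bp (Fed) and 2472 and 2611 bp (Fast) with it, a difference of 0.64 on the log2 scale. Of regions in all 8 lists, 5.04% had every Fast list wider than every Fed list for H3K27ac and 2.15% for H3K9ac. At Nfia this held for 2 of 7 H3K27ac regions (the other is at the end of Tm2d1) and 1 of 4 H3K9ac regions, numbers too small to set against those shares.

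The upper flank of Nfia holds Patj, a scaffold protein of the epithelial tight junction, and Tm2d1. The end of Patj (chr4:98395247-98397015) carried H3K27ac in all 8 lists. A region inside Patj, chr4:98509735-98510558, was the only H3K9ac region of the 4 loci in all 4 Fast and no Fed lists. Its scores were 69.2 and 76.9 in Fast 1 and Fast 2 without tetracycline and 172 and 199 with it, and 0.0189% of all H3K9ac regions had this pattern. H3K27ac was present over it in all 8 lists (chr4:98509607-98510605). With only the top-scoring peaks or only peaks of at least 500 bp, no H3K9ac region of the 4 loci had that pattern. The H3K27ac region outside Nfia kept its peaks in 4 Fast and 0 Fed lists under both settings. That result was fixed by the widths of its peaks (1018 bp or more) and their high ranks. Neither setting can add a peak to a Fed list, so it is no test of that region.

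Across the whole Nfia window, H3K27ac covered 12.9 and 18.1 kb in Fed 1 and Fed 2 without tetracycline and 23.6 and 22.1 kb in Fast 1 and Fast 2. With tetracycline it covered 11.3 and 20.6 kb in the Fed lists and 21.0 and 13.6 kb in the Fast lists. The H3K27ac groups were apart without tetracycline and overlapped with it. The share of all gene windows with that order was not counted. The log2 ratio of Fast over Fed, on covered kb plus 1 kb, was 0.34 with a pooled SD between lists of 0.39, and the median over all gene windows was 0.25. It was -0.14 without the lists numbered 1 and 0.83 without those numbered 2, so its sign rested on the lists used. H3K9ac covered 7.74 and 18.3 kb in the Fed lists and 26.6 and 17.7 kb in the Fast lists without tetracycline. With tetracycline it covered 12.0 and 12.6 kb in the Fed lists and 25.0 and 17.4 kb in the Fast lists. Both Fast 1 lists were high, and Fed 2 without tetracycline was above the Fast 2 lists. In H3K9ac the groups thus overlapped without tetracycline and were apart with it. The share of all gene windows with that H3K9ac order was not counted either. The H3K9ac log2 ratio was 0.76 (pooled SD 0.48), against a median of 0.36 over all gene windows. The two-sided exact permutation test over lists gave p = 0.11 (Benjamini-Hochberg adjusted over 12 tests, 0.92). With 36 arrangements the smallest p this design allows is 0.056, so no test of covered length here could pass 0.05.

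In Nfib the gene end was marked by H3K27ac in every list, and a region in the gene body was covered further in Fast lists. The upper end of the gene lies within the H3K27ac region chr4:82503793-82510412. H3K27ac covered 4153 and 5580 bp of it in Fed 1 and Fed 2 and 4106 and 6195 bp in Fast 1 and Fast 2 without tetracycline. With tetracycline it covered 3110 and 6145 bp in the Fed lists and 4719 and 5100 bp in the Fast lists. Fed and Fast values overlapped there. The H3K9ac region there, chr4:82503685-82507510, was in all 8 lists, with 713 bp covered in Fed 1 without tetracycline, whose peak was more than 1 kb from the gene end, and 2349 to 3826 bp in the others. The next H3K27ac region outward, chr4:82510528-82513818, was also in all 8 lists, and within it the H3K9ac region chr4:82512591-82513627 was in 5. The lower end of the gene had 1 H3K27ac peak and 1 H3K9ac peak, each in a single Fast 1 list.

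The gene-body region of Nfib, chr4:82383056-82387839, is 4784 bp long and starts 92.9 kb from the lower end of the gene. Without tetracycline H3K27ac covered 604 bp of it in Fed 1 (1 peak), 1718 bp in Fed 2 (2 peaks), 3938 bp in Fast 1 (2 peaks) and 4067 bp in Fast 2 (4 peaks). With tetracycline it covered 803 bp in Fed 1 (1 peak), 2904 bp in Fed 2 (3 peaks), 3419 bp in Fast 1 (4 peaks) and 3916 bp in Fast 2 (3 peaks). Each Fast list was above every Fed list, and the Fed lists differed more from one another than the Fast lists did. The mean log2 ratio was 1.62, a 3.07-fold longer coverage in Fast lists, with a pooled SD between lists of 0.85. Among 16401 H3K27ac regions in all 8 lists, only 3 had a larger ratio. The region was picked out after its values were seen and in the contrast the family was chosen from, so no test is given. The ratio was 1.36 when each list was limited to an equal number of its top-scoring peaks and 1.57 with peaks of at least 500 bp. It was 0.84 without the lists numbered 1 and 2.40 without those numbered 2. H3K9ac was sparse there: 4 lists had 1 short peak there (265 to 477 bp; Fast 1 in both tetracycline states, and both Fed lists with tetracycline) and 4 had none.

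**Figure D2:**
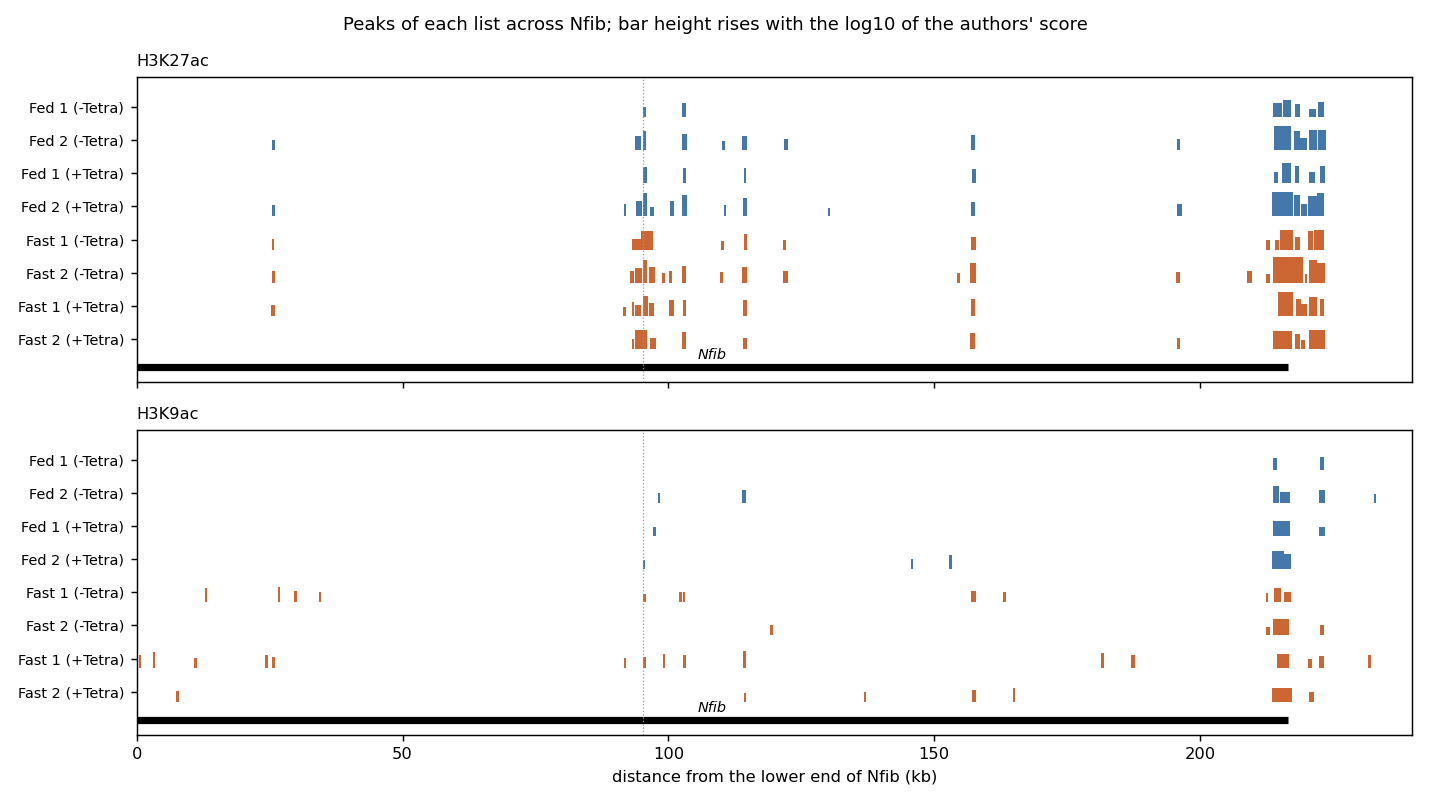
H3K27ac (upper panel) and H3K9ac (lower panel) peaks of each list across Nfib, in kb from the lower end of the gene, with Fed lists in blue and Fast lists in orange; bar height rises with the log10 of the score, and the dotted line is the centre of the gene-body region. The H3K27ac peaks at the dotted line span more of the region in the 4 Fast lists (3419 to 4067 bp) than in the 4 Fed lists (604 to 2904 bp), while the region at the gene end at the right has a peak in all 16 lists, in 1 of them (H3K9ac, Fed 1 without tetracycline) more than 1 kb from the end itself.

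**Figure D3:**
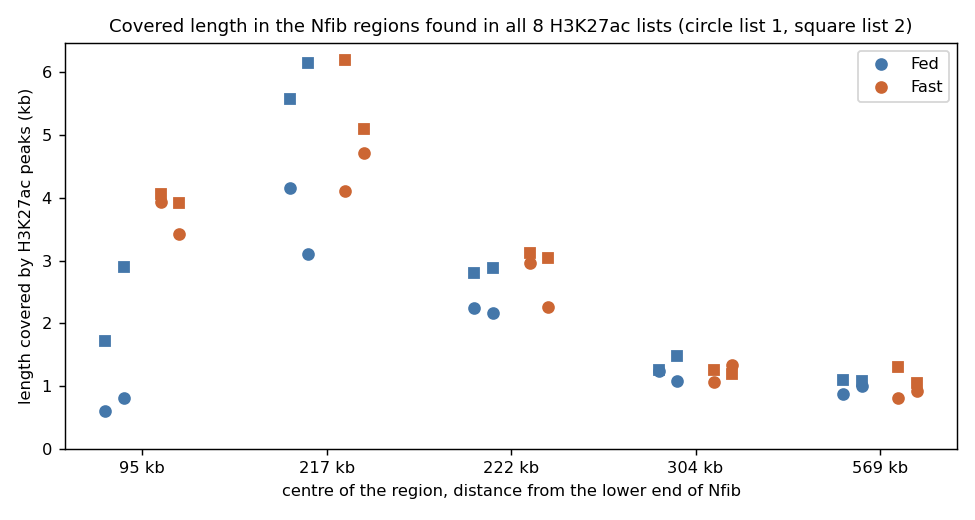
Length covered by H3K27ac peaks, in kb, in the 5 regions of the Nfib locus found in all 8 lists, by the distance of their centre from the lower end of the gene; each point is a list, blue for Fed and orange for Fast, circles for list 1 and squares for list 2, with the lists without tetracycline to the left in each colour. Fed and Fast points are separate in the gene-body region at 95 kb and overlap in the other 4.

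Other Nfib gene-body regions were present with and without food. H3K27ac regions at chr4:82392687-82393732, chr4:82404070-82405060 and chr4:82446973-82448072 were each in 7 lists. The first lacked a peak in Fast 1 without tetracycline, and the other two in Fed 1 without tetracycline. Outside the gene, the region chr4:81994862-81995959 was likewise missing only from that Fed 1 list, 1 of the H3K27ac lists with fewer peaks (36340). Among Nfib regions in 2 or more lists, 7 of 16 had more Fast than Fed H3K27ac lists and 1 had more Fed lists, against 30.8% and 21.1% of all such regions. For H3K9ac it was 8 and 1 of 13, against 34.3% and 22.6%. At Nfia these numbers were 6 and 6 of 24 for H3K27ac and 5 and 3 of 17 for H3K9ac. At Nfic more regions had a Fed excess, with 14 Fast and 22 Fed of 84 for H3K27ac and 18 and 40 of 90 for H3K9ac. At Nfix it was 19 and 16 of 62 for H3K27ac and 17 and 24 of 73 for H3K9ac.

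Across the Nfib window, H3K27ac covered 9.99 and 18.2 kb in Fed 1 and Fed 2 and 20.7 and 25.6 kb in Fast 1 and Fast 2 without tetracycline. With tetracycline it covered 10.6 and 21.2 kb in the Fed lists and 21.5 and 18.0 kb in the Fast lists. Both Fed 1 lists were low, and the groups were apart without tetracycline and overlapped with it. The log2 ratio was 0.55 (pooled SD 0.46). For H3K9ac the covered length was 2.77 and 10.1 kb in the Fed lists and 18.6 and 7.81 kb in the Fast lists without tetracycline. With it, the values were 6.77 and 10.1 kb in the Fed lists and 17.9 and 10.9 kb in the Fast lists. The Fast 1 lists stood above all others. The H3K9ac groups overlapped without tetracycline and were apart with it. The share of all gene windows with such an order was counted for neither mark, so it does not set Nfib apart. The H3K9ac log2 ratio was 0.86 (pooled SD 0.75; exact permutation p = 0.17, adjusted 0.92). It was -0.11 without the lists numbered 1 and 1.83 without those numbered 2.

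Nfic lies in a gene-dense stretch in which regions at its ends carried H3K27ac in fed and fasted crypts alike. The region chr10:81391509-81396218, which reaches the lower end of Nfic and also the ends of Smim24 and Gm48552, was in all 8 H3K27ac lists. H3K27ac covered 3055 and 4157 bp of it in Fed 1 and Fed 2 and 2253 and 4051 bp in Fast 1 and Fast 2 without tetracycline, and 3910 and 4230 bp (Fed) and 3003 and 2995 bp (Fast) with it. The groups overlapped. At the upper end, where Nfic starts, the region chr10:81432481-81436159 was also in all 8 lists, with 1501 to 1909 bp covered in Fed lists and 1747 to 2756 bp in Fast lists. These are merged regions: by its own H3K27ac peaks, Fast 2 with tetracycline had none within 1 kb of either end of Nfic, while the other 7 lists had. H3K9ac over the lower end (chr10:81391570-81398432) was in 7 lists, missing from Fast 2 with tetracycline, and over the upper end (chr10:81432439-81433646) in 5. A region inside Nfic, chr10:81414022-81415476, had H3K27ac in 3 Fast lists, with scores of 316 and 248 in Fast 1 and Fast 2 without tetracycline and 51.7 in Fast 2 with it, and in no Fed list.

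In the flanks of Nfic, H3K27ac covered less of some regions in Fast lists. Inside Celf5, which encodes an RNA-binding protein, the region chr10:81464058-81468814 was covered over 2969 and 4643 bp in Fed 1 and Fed 2 without tetracycline and 3819 and 4473 bp with it. In Fast 1 and Fast 2 it was covered over 1795 and 2906 bp without and 2154 and 2033 bp with tetracycline. Every Fed value was above every Fast value, with a log2 ratio of -0.84. The region at the ends of Mfsd12 and Fzr1 (chr10:81364529-81367582) had the same order, with a log2 ratio of -0.49. That made 2 of the 35 Nfic regions in all 8 lists, against 0.494% of all 16401 regions with every Fed list wider. One region of the 4 loci had an H3K27ac peak in all 4 Fed and no Fast lists, at an end of Tle6 (chr10:81600582-81601569), with scores of 108 and 67.8 without and 82.8 and 171 with tetracycline. Of all H3K27ac regions 0.0837% had that pattern.

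At Zbtb7a, a gene for a zinc finger transcriptional repressor in the lower flank of Nfic, H3K9ac covered much less in Fast lists. In the H3K9ac region chr10:81133513-81143796, which includes an end of the gene, 8069 and 10032 bp were covered in Fed 1 and Fed 2 without tetracycline, and 3100 and 543 bp in Fast 1 and Fast 2. With tetracycline 8623 and 9200 bp were covered in the Fed lists and 1871 and 1117 bp in the Fast lists. The Fed and Fast values were far apart, with a log2 ratio of -2.71, a 6.54-fold longer coverage in Fed lists, and a pooled SD between lists of 0.93. No other of the 4511 H3K9ac regions in all 8 lists had a lower ratio. It was -1.79 without the lists numbered 2 and -3.62 without those numbered 1. Among the top-scoring peaks, equal in number for each list, all 4 Fed lists but only 1 Fast list had a peak there. That setting kept 17249 peaks, all of Fed 1 without tetracycline but a small part of the Fast 1 lists (99050 and 97764 peaks). Under it 3091 gene windows had every Fed above every Fast list for H3K9ac, against 2 without it. The 4 and 1 lists therefore cannot be read apart from list size. The Zbtb7a region was the only one of 8 Nfic H3K9ac regions in all 8 lists with every Fed list wider. That order was seen in 1.06% of all H3K9ac regions in all 8 lists. The Zbtb7a region was chosen after its values were seen, so it is given without a test. H3K27ac over the same place (chr10:81133494-81148599) covered 12412 and 13858 bp (Fed) and 12348 and 13682 bp (Fast) without tetracycline, and 11115 and 13431 bp (Fed) and 11890 and 14173 bp (Fast) with it. In H3K27ac the groups overlapped.

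The Nfic window as a whole had 133 and 168 kb covered by H3K27ac in Fed 1 and Fed 2 and 134 and 169.6 kb in Fast 1 and Fast 2 without tetracycline. With tetracycline 114 and 175 kb were covered in the Fed lists and 128 and 130.4 kb in the Fast lists. The log2 ratio was -0.057 (pooled SD 0.27; 0.088 without the lists numbered 2), below the median of 0.25 over all windows, and the groups overlapped. H3K9ac covered 67.5 and 117 kb in the Fed lists and 68.9 and 75.95 kb in the Fast lists without tetracycline, and 75.7 and 128 kb (Fed) and 79.8 and 65.6 kb (Fast) with it. The Fed 2 lists were high in both states. The log2 ratio was -0.37 (pooled SD 0.40; exact permutation p = 0.33, adjusted 0.92), and 0.052 without the lists numbered 2. Where each window was divided by the covered length of its list, every Fed list was above every Fast list at Nfic in both marks, with log2 ratios of -0.35 for H3K27ac and -0.81 for H3K9ac. Windows with that order were 8.46% of all for H3K27ac and 10.3% for H3K9ac. The opposite order was found at no member, and at 4.81% of all windows for H3K27ac and 4.18% for H3K9ac. Without that division, no member window had its groups apart in either mark, and 5.42% of all windows for H3K27ac and 2.12% for H3K9ac had every Fast above every Fed list. The reverse was found in 0% of all windows for H3K27ac and 0.00914% for H3K9ac.

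**Figure D4:**
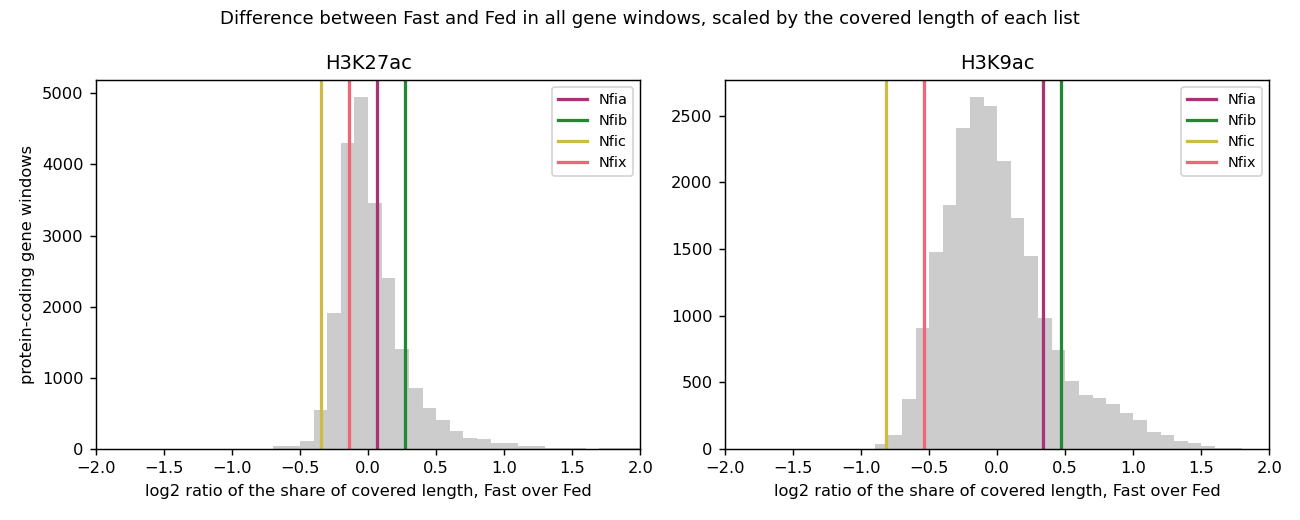
Histograms of the scaled log2 ratio of Fast over Fed for the windows of all 21883 protein-coding genes, for H3K27ac (left) and H3K9ac (right), with a coloured line for each member; each window's covered length was divided by that of its list, and windows of neighbouring genes share peaks. Nfic lies at -0.35 and -0.81, towards the lower edge of both histograms, and Nfib at 0.27 and 0.47, on the upper side of both.

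Nfix had scattered acetylation within the gene. No region of its gene body was in all 8 lists of either mark, out of 18 H3K27ac and 26 H3K9ac regions. The most frequent H3K27ac region, chr8:84722396-84723660, was in 3 Fed and 3 Fast lists, and the H3K9ac region there, chr8:84722507-84723593, in 3 Fed and 2 Fast lists. The region chr8:84730643-84732387 had H3K27ac in 1 Fed and 3 Fast lists, and H3K9ac (chr8:84730852-84732085) in 2 Fed and 4 Fast lists. At the lower end of Nfix, shared with Lyl1, a blood cell transcription factor gene, H3K27ac was in 3 lists (chr8:84702942-84704815) and at the upper end also in 3 (chr8:84799916-84800900). Regions at the neighbours Junb (chr8:84973814-84987679) and Ier2 (chr8:84658508-84666152), both immediate early genes, had H3K27ac in all 8 lists. One H3K9ac region of the 4 loci had a peak in all 4 Fed and no Fast lists, inside Hook2 (chr8:84997480-84998621), with scores of 86.5 and 51.8 without and 59.9 and 181 with tetracycline. Of all H3K9ac regions 0.0145% had that pattern.

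H3K27ac covered 49.4 and 73.7 kb of the Nfix window in Fed 1 and Fed 2 and 69.3 and 84.2 kb in Fast 1 and Fast 2 without tetracycline. With tetracycline 53.6 and 79.7 kb were covered in the Fed lists and 70.0 and 58.5 kb in the Fast lists. Both Fed 1 lists were the lowest and the groups overlapped, with a log2 ratio of 0.15 (pooled SD 0.31). It was -0.12 without the lists numbered 1 and 0.43 without those numbered 2, and -0.14 when divided by the covered length of the list. H3K9ac covered 46.0 and 68.8 kb in the Fed lists and 57.5 and 51.2 kb in the Fast lists without tetracycline, and 46.6 and 78.2 kb (Fed) and 58.8 and 51.2 kb (Fast) with it. The Fast values lay between those of the Fed lists. The log2 ratio was -0.094 (pooled SD 0.34; exact permutation p = 0.72, adjusted 0.93), and 0.32 without the lists numbered 2.

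**Figure D5:**
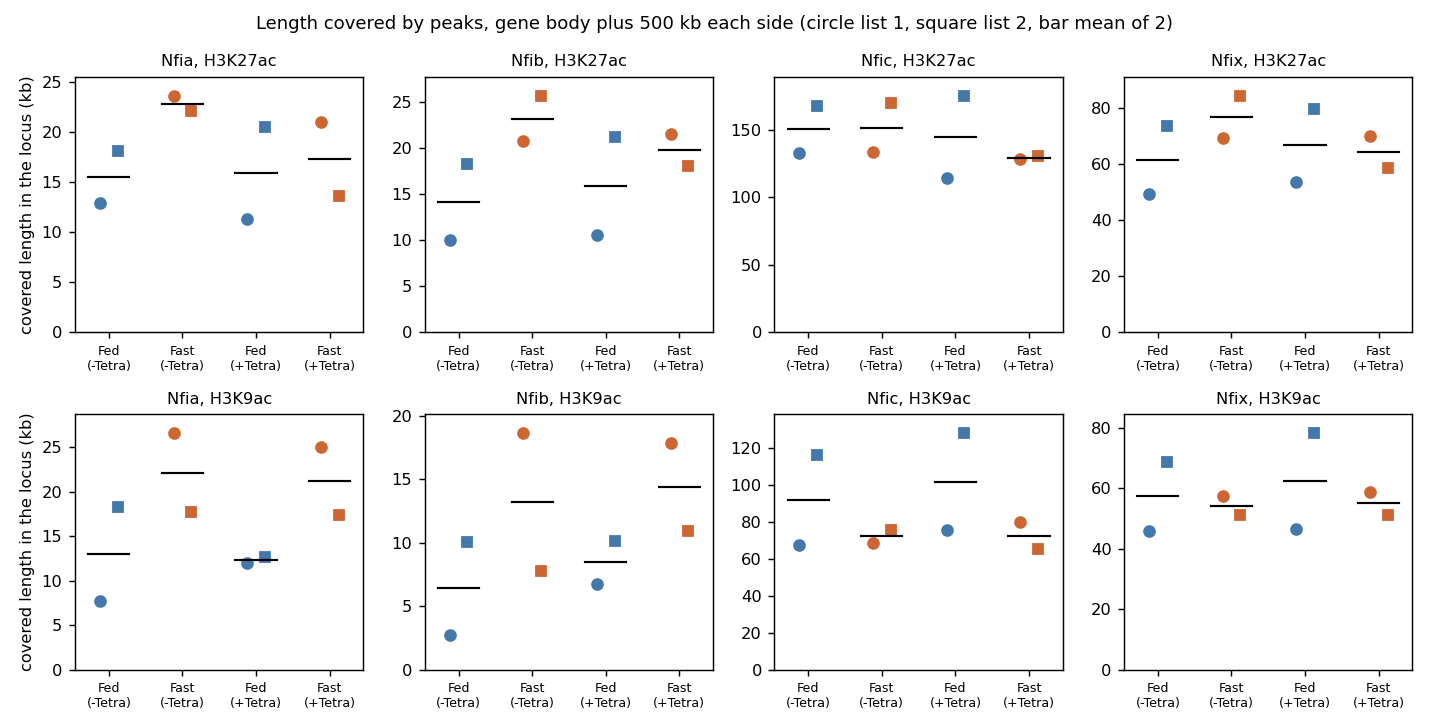
Length covered by peaks, in kb, in the window of each member (columns) for H3K27ac (upper row) and H3K9ac (lower row), with each list as a point (blue for Fed, orange for Fast, circle for list 1, square for list 2) and the mean of the 2 lists of a group as a bar. Fed 1 lies below Fed 2 in all 16 pairs, and the Fed and Fast points overlap in every panel when all 4 groups are read together.

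Tetracycline was asked about in the same way, with the labels exchanged within each feeding state. For H3K27ac the log2 ratio of with over without tetracycline was -0.20 at Nfia (exact permutation p = 0.44), -0.040 at Nfib (p = 0.94), -0.15 at Nfic (p = 0.44) and -0.069 at Nfix (p = 0.78), beside a median of -0.14 over all windows. For H3K9ac it was -0.0073 at Nfia (exact permutation p = 0.89), 0.36 at Nfib (p = 0.56), 0.075 at Nfic (p = 0.61) and 0.058 at Nfix (p = 0.50), beside a median of 0.11. All these differences were smaller than the pooled SD between lists of the same locus and mark, and adjusted p-values were 0.92 to 0.94. In Fast lists, Nfia had 23.6 and 22.1 kb of H3K27ac without and 21.0 and 13.6 kb with tetracycline, and the lists did not overlap. Nor did they at Nfic, with 134 and 169.6 kb without and 128 and 130.4 kb with it, while at Nfib and Nfix they overlapped. The share of all gene windows with such an order among Fast lists was not counted, so it does not set Nfia or Nfic apart. Whether the fasting difference itself changed with tetracycline was not tested. The region 111 kb outside Nfia had its peak in both Fast lists of either state. Among Fast lists, an H3K27ac peak in both lists without and neither list with tetracycline was found at 1 of 79 regions of Nfia, 3 of 42 of Nfib, 7 of 130 of Nfic and 6 of 114 of Nfix, against 2.24% of all regions. No H3K27ac region of a member had the reverse, against 0.838% of all. Fast 2 with tetracycline had fewer H3K27ac peaks (36737) than Fast 1 and Fast 2 without it (68545 and 55415). For H3K9ac the first order was found at 1, 1, 4 and 1 regions of Nfia, Nfib, Nfic and Nfix. Its reverse was found at 0, 2, 4 and 3 of them. No share over all H3K9ac regions is given for either order.

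Read within 1 tetracycline state, few member regions had H3K27ac in 1 feeding state alone. Without tetracycline, 2 of 79 H3K27ac regions of Nfia, 1 of 42 of Nfib, 2 of 130 of Nfic and 7 of 114 of Nfix were found in the 2 Fast lists and absent from the 2 Fed lists, against 3.1% of all regions. The reverse held for 1, 0, 3 and 0 of them, against 1.2%. With tetracycline both Fast lists alone had a peak at 2, 0, 1 and 2 regions, against 1.91%, and both Fed lists alone at 1, 0, 3 and 3, against 1.05%. The numbers are too small to set a member apart from these shares.

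The family's partners and targets known from other tissues were read at their gene ends. Of 13 such genes, 5 to 7 were marked by H3K27ac in each Fed list and 5 to 8 in each Fast list, and by H3K9ac 6 to 9 and 6 to 8. None was marked in every list of 1 feeding state and no list of the other. Of all genes, 0.0137% were marked by H3K27ac in the 4 Fed lists alone, and by H3K9ac 0.0777% were in the 4 Fast lists alone and 0.0411% in the 4 Fed lists alone. Hes1, a repressor that acts downstream of Notch, and Foxa1, a pioneer factor, were marked by both marks in all 8 lists. Sox9, a transcription factor of crypt stem and Paneth cells that acts with NFIA in glia, had H3K27ac in 7 and H3K9ac in 8 lists, as had Ezh2, which encodes the catalytic subunit of Polycomb repressive complex 2. At Pparg, a nuclear receptor gene of fat metabolism, 2 Fast and 4 Fed lists carried H3K27ac, and all 8 carried H3K9ac. At Slc1a3, which encodes a glial glutamate transporter, 4 Fast lists and 1 Fed list carried H3K27ac, and all 8 carried H3K9ac. The astrocyte genes Gfap and Fabp7 had H3K27ac in no list, as had Ucp1, while Gfap had H3K9ac in 1 list. Of the remaining genes, Aqp4, Mmd2 and Zcchc24 had H3K27ac in 1 list each and Apcdd1 in 5. The members themselves differed in the same measure: by the list's own peaks, Nfib was marked by H3K27ac at an end in 8 lists, Nfic in 7, Nfix in 4 and Nfia in 0, and by H3K9ac in 7, 6, 3 and 0.

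Across the 8 H3K27ac lists the members did not vary together. On log2(covered kb + 1 kb) with the median of all windows in a list taken away, Pearson's r was 0.30 between Nfia and Nfib, -0.38 between Nfia and Nfic, 0.15 between Nfia and Nfix, -0.90 between Nfib and Nfic, -0.26 between Nfib and Nfix and 0.49 between Nfic and Nfix. These are descriptions over 8 points that share libraries and differ in list size. The genes whose windows were most like Nfia were Isoc1 (r = 0.98), Cstdc1 and Cst12 (both 0.97, neighbours sharing peaks). For Nfib they were Grxcr2 and Prelid2 (both 0.98, neighbours) and Rdh12 (0.97), for Nfic Nlrp1a, Rnf223 and B3galt6 (all 0.98), and for Nfix Yipf2 (0.97), Smarca4 and Timm29 (both 0.96, all 3 close together). An r above 0.9 was reached by 70 windows for Nfia, 130 for Nfib, 405 for Nfic and 26 for Nfix.

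The borders of the windows passed through sparse sequence at Nfia. The outermost H3K27ac regions inside lay 314 kb below and 420.4 kb above the gene, and the nearest outside lay 611 kb below and 543 kb above, each in 1 list. At Nfix a region in all 8 lists lay 500.2 kb below the gene, just outside, and another in all 8 lay 498 kb above, just inside.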

How the data were processed

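Each of the 16 deposited peak lists holds the chromosome, start and end of each peak, a peak name that starts with MACS, and a score. The authors' score is at least 50 and its unit is not given in the sources used here. The build is mm10 and the tools are FastQC, Bowtie and SAMtools, per the submitters' processing notes, with no versions or cutoff, and the deposited names describe the data as downsampled. Peaks on chromosomes 1 to 19, X and Y were used. Genes came from a RefSeq table for GRCm38.p6. Peaks of the 8 lists of a mark that overlapped by at least 1 bp were merged into regions. Covered length was compared as log2(kb + 1 kb) by an exact two-sided permutation test within strata (36 arrangements, Benjamini-Hochberg over 12 tests). The script was tested on simulated lists. Members and gene lists (NFI partners and targets, intestinal transcription factors, cell type markers) were chosen with earlier results of these data known. Named regions were, in each locus and mark, up to 3 in all lists of 1 feeding state and none of the other, the 2 in all 8 lists with the highest median score, and those within 1 kb of a member's end; other regions were chosen after their values were seen. The work used scipy 1.17.1, pandas 2.3.3 and numpy 2.4.6 under Python 3.11.15, with plots from matplotlib 3.10.9.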

Additional observations from a re-analysis of the deposited data

How the results depend on the processing

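The alternatives were the share of each list's covered length, windows of the gene body plus 100 kb, an equal number of top-scoring peaks from each list, peaks at least 500 bp wide, an overlap of 0.5 of the shorter peak, and leaving out the lists of 1 number. Peak lists without read depth limit all values. Divided by the list's covered length, the H3K27ac fasting log2 ratio was -0.35 at Nfic and turned to -0.14 at Nfix, and the tetracycline ratios changed sign to 0.098 at Nfib and 0.075 at Nfix for H3K27ac and to -0.049 at Nfic and -0.065 at Nfix for H3K9ac. With top-scoring peaks the H3K27ac fasting ratio of Nfix was -0.052, the H3K9ac fasting ratios were 0.13 at Nfia, 0.24 at Nfib, -1.28 at Nfic and -0.93 at Nfix, and the tetracycline ratios changed sign to 0.080 at Nfia and 0.11 at Nfib (H3K27ac) and -0.026 at Nfic (H3K9ac). With peaks of at least 500 bp the H3K9ac tetracycline ratio of Nfia changed sign to 0.030. With 100 kb flanks it did so at Nfic (-0.062), as did the H3K9ac fasting ratio of Nfix (0.13). The cause was not tested.

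Leaving out the lists of 1 number gave fasting ratios of -0.14 to 0.83 at Nfia, 0.12 to 0.97 at Nfib, -0.20 to 0.088 at Nfic and -0.12 to 0.43 at Nfix for H3K27ac. For H3K9ac they were 0.19 to 1.33 at Nfia, -0.11 to 1.83 at Nfib, -0.78 to 0.052 at Nfic and -0.51 to 0.32 at Nfix. Tetracycline ratios were -0.24 to -0.17 at Nfia, -0.14 to 0.060 at Nfib, -0.16 to -0.14 at Nfic and -0.20 to 0.065 at Nfix for H3K27ac, and -0.26 to 0.25, 0.22 to 0.49, -0.037 to 0.19 and 0.025 to 0.092 for H3K9ac. Regions of the 4 loci in all Fast and no Fed lists then numbered 5 to 9 (H3K27ac) and 3 to 21 (H3K9ac), and the reverse 3 to 10 and 2 to 20, since fewer lists have to match. With 100 kb flanks all 4 of these counts were 0. The Zbtb7a ratio for H3K9ac was -3.62 to -1.79. The H3K9ac Fast count was 0 with top-scoring peaks and with peaks of at least 500 bp, and both Fed counts were 2 with top-scoring peaks.

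Of all gene windows, every Fed list was above every Fast list for H3K27ac in 1852 when scaled, 23 with 100 kb flanks, 65 with top-scoring peaks and 5 with wide peaks, against 0; every Fast list was above in 789 with top-scoring peaks, against 1186. For H3K9ac, Fast was above in 914 scaled, 763 with 100 kb flanks, 199 with top-scoring and 207 with wide peaks, against 464, and Fed in 2257, 34, 3091 and 13, against 2. Of the members, Nfic (scaled, both marks; top-scoring peaks, H3K9ac) and Nfix (top-scoring peaks, H3K9ac) were among the windows with Fed above, and Nfia (100 kb flanks and wide peaks, H3K9ac) among those with Fast above.

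With the list number as a block the ratios are the same, for example 0.34 for H3K27ac at Nfia and 0.76 for H3K9ac at Nfia (exact permutation p = 0.25). The smallest p that this pairing allows is 0.125. The number is only in the deposited names and no source says that it pairs the lists. The alternatives of the Nfib gene-body region, of the Zbtb7a region and of the region outside Nfia were chosen after seeing the data.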
